A study of Mus musculus with 12 samples.

Results

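The regions described here are introns that carried reads in RNA sequencing libraries of mouse blood stem and progenitor cells, set against the exons of the same genes. Members were chosen by position and by their own counts: a member was an annotated intron interval, taken once, that overlapped no annotated exon on either strand and held at least 50 counts summed over the 12 libraries. Of 240179 intron intervals, 172008 overlapped no exon, 76456 of these had no count, and 28319 were members. The members made up 16.5% of the intervals that overlapped no exon and held 92.2% of the counts in them. The choice used the summed count, so the count itself is a description, and a member that reached 50 counts through 1 group had to differ between groups. For that reason shares and medians over the members are given as descriptions, with the value at another minimum where it was computed.

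An intron is the stretch of a newly made transcript that the spliceosome cuts out before the messenger RNA leaves the nucleus. Splicing starts while the gene is still being copied, and most introns are then broken down, so intron reads come from transcripts that are not yet spliced, from transcripts that keep an intron, from other RNAs that start inside it, and from any genomic DNA in the preparation. These sources were not told apart by the assay. Intron counts are therefore read here beside the exon counts of the same gene, as a sign of unspliced RNA and no more.

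The study measured RNA in sorted cells of C57bl/6 wild-type mice and of a Col1a1-MLL/ENL strain, in which doxycycline switches on the MLL-ENL fusion, a leukaemia oncogene made from a histone methyltransferase and an elongation factor. Stem cells (HSC) were Lin-Sca1+ckit+CD48-CD150+, and the myeloid progenitors called preGM were Lin-Sca1-ckit+ cells that lacked CD150, CD105, CD41 and CD16/32. The 4 groups were wild-type HSC, MLL-ENL HSC, wild-type preGM and MLL-ENL preGM, each with 3 libraries. All 4 groups, wild type included, were kept for 48 hours in OptiMEM with 10% FCS and 1 µg/ml doxycycline before RNA was taken, with the cytokines IL3 and G-CSF at 5 ng/ml each and SCF between 10 and 50 ng/ml. Doxycycline was given in every MLL-ENL library, so effects of the fusion and of other strain differences cannot be told apart. Libraries were made from little RNA with the SMARTer universal low input kit, whose random primers copy spliced and unspliced RNA alike, and nothing in the labels says that replicates were separate animals. All p-values rest on the spread among the 12 libraries, part or all of which may be technical.

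Of the members, 28170 belonged to 1 gene, 131 to several and 18 to none that could be matched, and together they fell in 9287 genes. Those in protein-coding genes were 97.6%. Their median length was 3537 bases, with a range of 66 to 339689, against a median of 1229 for every interval that overlapped no exon. The share of intervals that became members rose from 1.84% of introns under 300 bases to 44.6% of those of at least 10000 bases. A later gene annotation (GENCODE M21) placed an exon inside 6895 of them (24.3%), so part of their reads may be exon reads under newer models. The members just inside the minimum, with 50 counts, included introns of Kcnq5, Dst, Uggt1 and Wdr75, and those just outside, with 49, included introns of Prex2, Hspd1, Mpp4, Cyp20a1 and Acadl.

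For 701 members the ends could be read, because a GENCODE M21 transcript on GRCm38 keeps the whole intron inside an exon. Of these, 690 (98.4%) began with GT and ended with AG, 6 began with GC and ended with AG, 2 began with AT and ended with AC, and 3 had other ends. A median of 777 bases makes them shorter than most members, and 567 lay in transcripts that the annotation itself calls retained introns. The introns below are shown because they sit in genes of the spliceosome and the ribosome whose counts follow, and because they show the 3 main kinds of ends. E2f6 was picked after its values were seen. Each line gives the last 10 exon bases and first 20 intron bases, or the last 20 intron bases and first 10 exon bases, from the M21 transcripts, 5′ to 3′ on the gene's strand, with the 2 intron bases at the splice site in capitals. The first 4 introns have GT and AG, Rpl29 has GC and AG, and E2f6 has AT and AC.
Srsf7 intron 3, chr17:80204388-80205261 (minus strand), 5′ end: gaagaagcagGTatttaattaatgaaggaa
Srsf7 intron 3, 3′ end: ttttctaacttaaaaaatAGgtcacgatct
U2af2 intron 4, chr7:5068797-5069443 (plus strand), 5′ end: ttgaaggcaaGTaaggtccattctgacttt
U2af2 intron 4, 3′ end: gtctcctattccctctgcAGgaggctatga
Hnrnpa2b1 intron 1, chr6:51467296-51469670 (minus strand), 5′ end: cgcgatggagGTaacgggtttgaaatcaat
Hnrnpa2b1 intron 1, 3′ end: aatggtatttccctttgcAGagagaaaagg
Rpl3 intron 3, chr15:80081032-80081614 (minus strand), 5′ end: ataagaactgGTaagaggctcttgggttcc
Rpl3 intron 3, 3′ end: actgtgctctgctcctgaAGgcacaagtct
Rpl29 intron 1, chr9:106429640-106429969 (plus strand), 5′ end: gggtcgcgagGCaggcgacacgggtggcag
Rpl29 intron 1, 3′ end: atctcgtggctttcttgcAGgtgcagacat
E2f6 intron 4, chr12:16820385-16822092 (plus strand), 5′ end: aaaatgaaagATatccttccatcagtacct
E2f6 intron 4, 3′ end: gatccttgaccaggtctcACactagcgtat

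The intron of Srsf7, which encodes a serine and arginine rich splicing factor, is 874 bases long. It held 315, 454 and 245 counts in wild-type HSC, 853, 719 and 779 in MLL-ENL HSC, 582, 129 and 662 in wild-type preGM, and 1886, 913 and 1005 in MLL-ENL preGM. Over all libraries its counts per kb were 6.39% of those of the gene's exons. The intron of U2af2, the large subunit of the factor that binds the 3′ splice site, was denser at 20.7%, while that of Rpl3, a ribosomal protein gene, stood at 1.15% and the GC-AG intron of Rpl29 at 0.966%. The AT-AC intron of E2f6, a transcriptional repressor, stood at 11.5%, with 11 to 96 counts per library.

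Exon counts summed to between 14518804 and 50300549 per library, with preGM libraries deeper than HSC libraries. Stem cell markers summed to 584.6 to 1018 CPM (counts scaled to a fixed library total) in HSC libraries. In preGM libraries they summed to 40.51 to 133.5. Granulocyte-macrophage markers summed to 470.4 to 567.5 in HSC libraries and 10190 to 22530 in preGM libraries. Kit (ckit in the sort gates) is in both lists. It stood at 95.67 to 132.3 CPM in wild-type HSC and 138.7 to 170.4 in MLL-ENL HSC. In wild-type preGM it stood at 17.45 to 21.3, and in MLL-ENL preGM at 23.91 to 105.0. The other granulocyte-macrophage markers were each higher in preGM libraries. RNA was taken after culture, so these levels cannot show that the sorts matched their labels. The 6 megakaryocyte and erythroid markers summed to 667.8 to 787.2 CPM in the wild-type stem cells and 112.4 to 177.4 in the MLL-ENL ones, the 4 mast cell and basophil markers to 962.1 to 1539 in wild-type preGM and 189.3 to 235.1 in MLL-ENL preGM, and the 4 lymphoid markers to at most 4.79 anywhere, with Cd3e at 0. In bulk samples fewer cells of a type and less RNA per cell cannot be told apart. In 2 preGM libraries the introns stood apart from their replicates. Wild-type preGM replicate 2 held 0.692 counts per 100 exon counts in 6 very high intervals against at most 0.208 in the other libraries, and MLL-ENL preGM replicate 1 had the highest intron share of its cell type. Some of the results that rest on them are given with and without them.

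The first comparison asked how much of each library lay in introns. Members held 3.73, 3.82 and 3.47 counts per 100 exon counts in the wild-type HSC libraries, and 5.08, 5.48 and 4.40 in the MLL-ENL HSC libraries. They held 1.52, 1.88 and 1.13 in the wild-type preGM libraries, and 3.17, 1.59 and 1.37 in the MLL-ENL preGM libraries. All 6 HSC libraries lay above all 6 preGM libraries, all 3 MLL-ENL HSC libraries lay above all 3 wild-type HSC libraries, and the 2 preGM groups overlapped. The means were 3.67 ± 0.182 in wild-type HSC, 4.99 ± 0.547 in MLL-ENL HSC, 1.51 ± 0.373 in wild-type preGM and 2.05 ± 0.982 in MLL-ENL preGM (SD, n = 3).

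**Figure D1:**
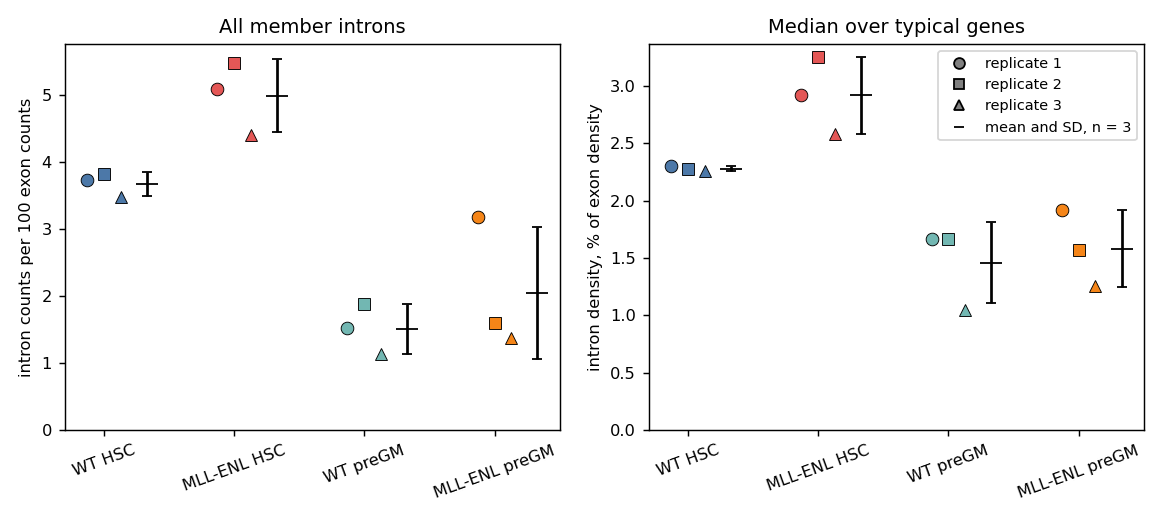
Left panel, member intron counts per 100 exon counts in each of the 12 libraries, and right panel, the intron density of the typical gene (median over 5923 genes, percent of exon counts per kb), where points are libraries and bars are mean and SD of 3. All 6 HSC points sit above the preGM points in both panels, and MLL-ENL preGM replicate 1 at 3.17 is the highest preGM point on the left.

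Set within genotype, preGM libraries held 2.55 fewer intron counts per 100 exon counts than HSC libraries (two-sided exact permutation test over 400 splits, p = 0.005, the smallest the design allows, and 0.045 after Benjamini-Hochberg adjustment over 18 library-level tests). Set within cell type, MLL-ENL libraries held 0.924 more than wild-type libraries (exact permutation p = 0.03, adjusted 0.135), which did not pass after adjustment. The genotype difference was 1.31 in HSC and 0.535 in preGM, with exact permutation p = 0.1, the smallest for 3 libraries against 3, and p = 0.6. The preGM difference rested on 1 library: without MLL-ENL preGM replicate 1 it was -0.0288. Without both preGM libraries that stood apart, the cell type difference was -2.93 (exact permutation p = 0.01) and the genotype difference 0.734 (exact permutation p = 0.0333), so the cell type difference was as large without them. With a minimum of 10 counts in place of 50, the differences were -2.73 and 1.02.

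Several measures of RNA and library make-up moved with the intron share between cell types. The share of counts from mitochondrial genes averaged 5.63% in wild-type HSC, 6.46% in MLL-ENL HSC, 3.34% in wild-type preGM and 2.51% in MLL-ENL preGM. Malat1, a long RNA that stays in the nucleus, averaged 3309, 2818, 1744 and 749 CPM in the same order, and the summed level of 10 nuclear long RNAs ranged from 3130 to 4189 CPM in HSC libraries and from 1004 to 2505 in preGM libraries. Set within cell type, the difference of MLL-ENL from wild type was -743 CPM for Malat1 and -657.5 CPM for the nuclear long RNAs. For the mitochondrial share it was -0.00446 percentage points. MLL-ENL preGM replicate 1, the preGM library with the highest intron share, had the lowest mitochondrial share (1.83%) and Malat1 (642 CPM) of any library. The part of these measures in the intron share was not tested. With mitochondrial genes removed from the exon total, the differences were -2.78 for cell type and 0.983 for genotype. As a measure of reads that come from no transcription unit in use, the introns of 30 neuron and muscle genes (659 intervals, 17.59 Mb) held 0.770, 1.40, 0.134 and 0.109 CPM per Mb of intron in the 4 groups. That was 0.486%, 0.646%, 0.208% and 0.136% of the density in members, and MLL-ENL preGM replicate 1, with its high intron share, stood at 0.121 CPM per Mb, inside the range of the other preGM libraries.

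The typical gene gave the same order for cell types. Among 5923 genes with at least 200 intron and 1000 exon counts, intron counts per kb had a median of 2.30%, 2.28% and 2.26% of exon counts per kb in the wild-type HSC libraries, and 2.92%, 3.25% and 2.58% in the MLL-ENL HSC libraries. The preGM medians were 1.66%, 1.67% and 1.05% in wild type and 1.92%, 1.57% and 1.25% in MLL-ENL. Every HSC library was above every preGM library, and the preGM groups again overlapped. The cell type difference was -1.08 percentage points (exact permutation p = 0.005, adjusted 0.045) and the genotype difference 0.381 (exact permutation p = 0.08, adjusted 0.138). Gene by gene, the 3 libraries of each group did not overlap for 850 genes higher and 222 lower in MLL-ENL HSC than in wild-type HSC (18.1% of the genes), and for 502 higher and 221 lower in preGM (12.2%). Between cell types the groups were apart for 157 genes higher and 1738 lower in wild-type preGM than in wild-type HSC (32.0%), and for 92 higher and 2194 lower in MLL-ENL preGM than in MLL-ENL HSC (38.6%). Full separation of 3 libraries from 3 has an exact permutation p of 0.1, so some genes come apart without a group difference.

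Highly expressed genes had the lowest intron density. The genes were cut into 4 equal classes by exon level. In wild-type HSC the median fell from 6.60% in the class with the lowest exon level to 3.53%, 1.72% and 0.466% in the next 3, and in MLL-ENL HSC it went from 7.86% through 4.29% and 2.19% to 0.641%. Wild-type preGM had 4.30%, 2.26%, 1.03% and 0.252%, and MLL-ENL preGM 4.87%, 2.40%, 1.13% and 0.311%, so the preGM groups lay below the HSC groups in each class. Exon counts enter both the class and the density, so the fall is a description. Length was read over every intron that overlapped no exon in genes with at least 1000 exon counts, not over members alone. Introns under 300 bases held 0.602% of exon density in wild-type HSC and those of at least 10000 bases 1.02%, with 0.869% and 1.35% in MLL-ENL HSC, 0.343% and 0.511% in wild-type preGM, and 0.466% and 0.614% in MLL-ENL preGM.

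**Figure D2:**
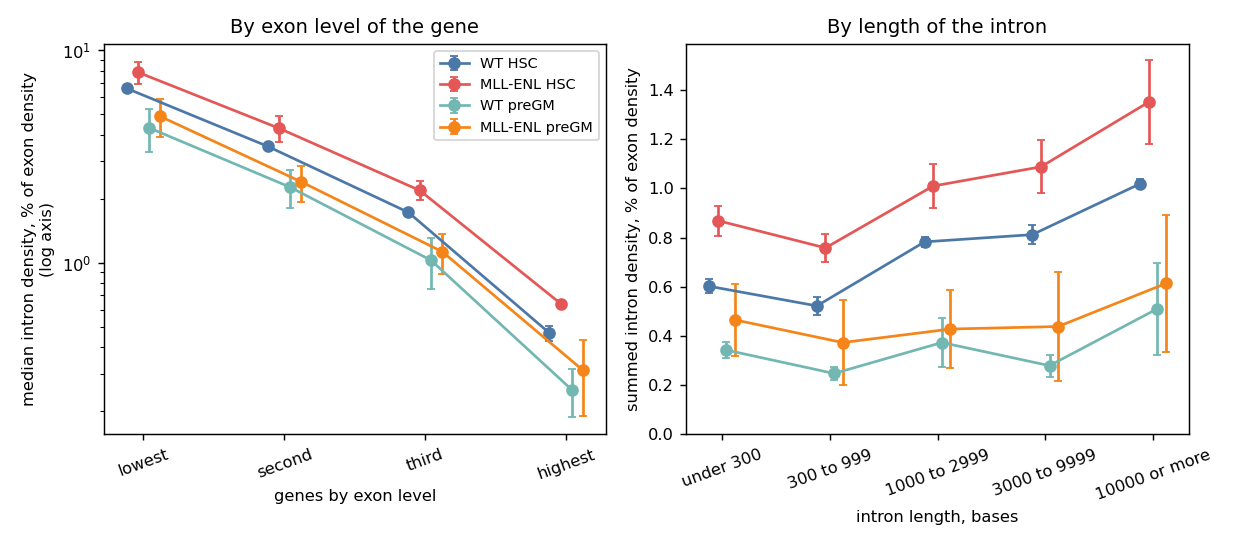
Intron density as a percent of exon density (vertical axes) by class of exon level (left, log axis) and by intron length class (right), as group means with SD over 3 libraries. Density falls with exon level in all 4 groups, from 6.60% to 0.466% in wild-type HSC, and the preGM groups lie under the HSC groups in each class.

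Position along the gene was read from 1243 genes with members as first and last introns. A polymerase reaches the first intron before the last, so reads from unfinished transcripts favour the first. The density of first introns divided by that of last introns was 0.858 to 0.872 in wild-type HSC, 0.914 to 0.933 in those with MLL-ENL, 0.716 to 0.893 in wild-type preGM and 0.738 to 0.799 in MLL-ENL preGM. The MLL-ENL HSC libraries were the highest, and the wild-type preGM libraries spread over the range of both other groups below them. The cell type difference was -0.0991 (exact permutation p = 0.03, adjusted 0.135) and the genotype difference 0.00661 (exact permutation p = 0.81), and neither passed after adjustment.

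The next comparisons asked which genes gained or lost intron counts relative to their own exon counts, in a fit over 8996 genes with at least 50 exon counts. MLL-ENL HSC against wild-type HSC called 4 genes higher (0.0445% of the genes) and 1 lower (0.0111%), and MLL-ENL preGM against wild-type preGM called 2 higher (0.0222%) and 2 lower (0.0222%). Between cell types, 15 genes were called higher (0.167%) and 111 lower (1.23%) in wild-type preGM than in wild-type HSC, and 4 higher (0.0445%) and 60 lower (0.667%) in MLL-ENL preGM than in MLL-ENL HSC. The median log2 change of the ratio over all genes was 0.32, 0.17, -0.66 and -0.81 in these comparisons, which share libraries. When introns and exons were scaled separately, which takes out a change common to all genes, the medians became 0.12, -0.09, 0.20 and 0.00, and the cell type calls became 36 higher and 23 lower in wild type and 17 higher and 21 lower in MLL-ENL. The lean towards lower ratios in preGM was thus present with the shared scaling and not with the separate one. The number called also hung on single libraries: between wild-type cell types it was 5 when wild-type preGM replicate 1 was left out, 6 for replicate 3 of that group and 210 for MLL-ENL preGM replicate 1. Between MLL-ENL cell types it was 1 when MLL-ENL preGM replicate 3 was left out, 9 for its replicate 2 and 206 for its replicate 1.

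**Figure D3:**
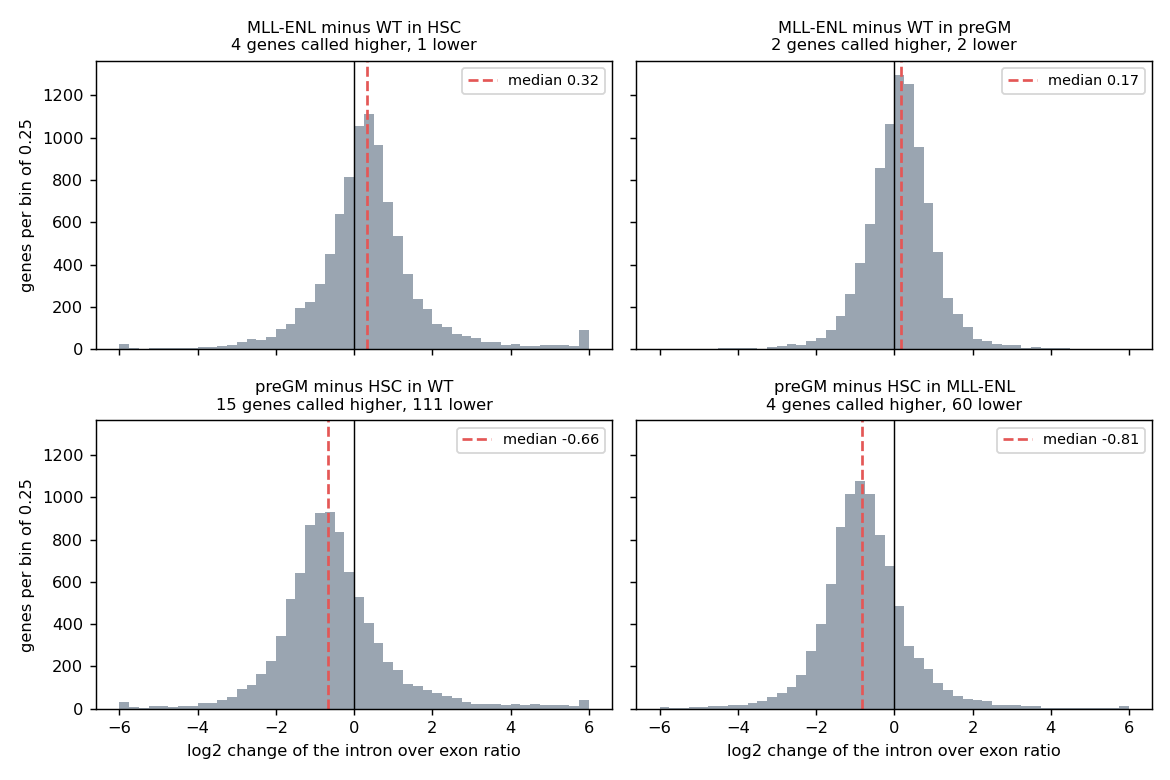
Histograms of the log2 change of the intron over exon ratio over 8996 genes, 1 panel per comparison, in bins of 0.25 (vertical axis, genes per bin), with the median as a dashed line and changes beyond 6 gathered in the outer bins. The medians sit at 0.32 and 0.17 for MLL-ENL against wild type and at -0.66 and -0.81 for preGM against HSC.

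The difference between the 2 genotype comparisons called 0 genes in edgeR's quasi-likelihood test, with 487 at an unadjusted p under 0.05 (150 higher and 337 lower in preGM), 8 calls by DESeq2 and 0 by limma. Genes called in 1 cell type and not in the other are therefore not shown to differ between them.

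Gt(ROSA)26Sor changed most clearly with genotype, and in both cell types. It is a noncoding gene expressed in most tissues whose first intron is the standard site for placing transgenes in mice, and the labels do not say whether this strain carries an insertion there. Its member is that first intron, chr6:113071436-113077067 (GRCm38, minus strand, 5632 bases). Intron counts were 11, 43 and 11 in wild-type HSC, 215, 166 and 204 in MLL-ENL HSC, 17, 14 and 27 in wild-type preGM, and 426, 350 and 469 in MLL-ENL preGM. Exon counts ran the other way, at 863, 818 and 535, then 219, 162 and 152, then 1405, 611 and 1634, then 402, 208 and 290. No MLL-ENL library overlapped a wild-type library of its cell type in either measure. Intron counts per kb rose from 0.808% ± 0.595 to 31.5% ± 5.55 of exon counts per kb in HSC and from 0.485% ± 0.153 to 41.0% ± 9.66 in preGM (SD, n = 3). The log2 change of the ratio was 5.45 ± 0.56 (SE) in HSC (edgeR, adjusted p = 0.000893) and 6.42 ± 0.56 in preGM (adjusted p = 0.000118), made of an intron rise of 2.64 and 4.06 and exon changes of -2.65 and -2.39. With only the 2 HSC groups in the fit the adjusted p in HSC was 0.129.

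Gm47283 moved the other way at both cell types. It is a predicted gene near the end of the Y chromosome, and its member lies at Y:90793681-90816348. Its intron held 1387, 2123 and 1454 counts in wild-type HSC and 146, 199 and 125 in MLL-ENL HSC, with 1509, 668 and 742 in wild-type preGM and 280, 120 and 161 in MLL-ENL preGM. No library overlapped across genotype. The log2 change of the ratio was -3.92 ± 0.43 in HSC (adjusted p = 0.00103) and -3.08 ± 0.42 in preGM (adjusted p = 0.011), while exon counts did not pass the test (-0.07 and 0.31). The call in preGM was lost on leaving out any 1 preGM library other than wild-type replicate 3, and without both that stood apart (adjusted p up to 0.174). Sequence there is shared with the X chromosome and between copies, so where such reads were placed is uncertain.

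Hnrnph1, which encodes an RNA-binding protein of the heterogeneous nuclear ribonucleoprotein family, was called through the last of its 11 introns, chr11:50385191-50385776. That intron held 0 counts in all 3 wild-type HSC libraries, 41, 49 and 46 in MLL-ENL HSC, 16, 8 and 21 in wild-type preGM, and 43, 7 and 18 in MLL-ENL preGM. Exon counts lay between 4204 and 6900 in the 6 HSC libraries. The ratio in MLL-ENL HSC was at least 35.2-fold higher than in wild-type HSC, taking 3 counts over the group as the limit that a count of 0 allows (adjusted p = 0.00699), and that in wild-type preGM at least 11.5-fold higher (adjusted p = 0.0183). The genotype call was lost in 2 of 26 alternatives (adjusted p up to 0.2245) and the cell type call in 4 of 26 (adjusted p up to 0.1177). The other 2 genes called higher in MLL-ENL HSC had fewer than 200 intron counts and were named after their values were seen. They were F2rl2, a thrombin receptor family gene with 1, 0 and 0 counts against 29, 12 and 18 (adjusted p = 0.0369), and Map3k12, a stress pathway kinase with 0, 1 and 0 against 19, 11 and 18 (adjusted p = 0.046). In both genes the MLL-ENL HSC counts alone were near or above the minimum of 50 for a member. The choice of members may thus favour these calls, so they are descriptions.

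Rnf220, a ubiquitin ligase gene and a listed MLL fusion target, lost intron counts in wild-type preGM and had them in MLL-ENL preGM. Its 2 members held 386, 335 and 232 counts in wild-type HSC, 737, 807 and 555 in MLL-ENL HSC, 42, 28 and 24 in wild-type preGM, and 1550, 533 and 453 in MLL-ENL preGM. Exon counts in preGM were 763, 629 and 855 in wild type and 2081, 1079 and 1608 in MLL-ENL. The ratio rose by 3.51 ± 0.48 on the log2 scale in MLL-ENL preGM (adjusted p = 0.011) and was lower by a log2 change of -3.03 ± 0.48 in wild-type preGM than in wild-type HSC (adjusted p = 0.0125). In HSC the genotype change was 0.55 ± 0.46 (adjusted p = 0.702). The Rnf220 genotype call in preGM was lost on leaving out any 1 preGM library other than MLL-ENL replicate 3, and without both that stood apart (adjusted p up to 0.174). Nearly all of these counts came from the first intron of the long transcript, chr4:117307679-117375313, which held 5254 of them.

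In Spns2, a sphingosine phosphate transporter gene, the exons moved and the introns did not pass the test. Its introns held 345, 213 and 173 counts in wild-type HSC, 294, 275 and 141 in MLL-ENL HSC, 228, 262 and 171 in wild-type preGM, and 211, 184 and 168 in MLL-ENL preGM. Exon counts were 2025, 2457 and 1622, then 3383, 2586 and 2539, then 188, 150 and 193, then 1614, 1060 and 1107, so wild-type preGM was the low group by far. The ratio was higher in wild-type preGM than in wild-type HSC (3.40 ± 0.47, adjusted p = 0.00608) and lower in MLL-ENL preGM than in wild-type preGM (-3.03 ± 0.47, adjusted p = 0.0309). The genotype call was lost in 11 of 27 alternatives (adjusted p up to 0.469), which include leaving out any 1 preGM library or MLL-ENL HSC replicate 1 or 2. The exon change between the wild-type cell types was -4.17 and the intron change -0.73 (adjusted p = 0.181).

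**Figure D4:**
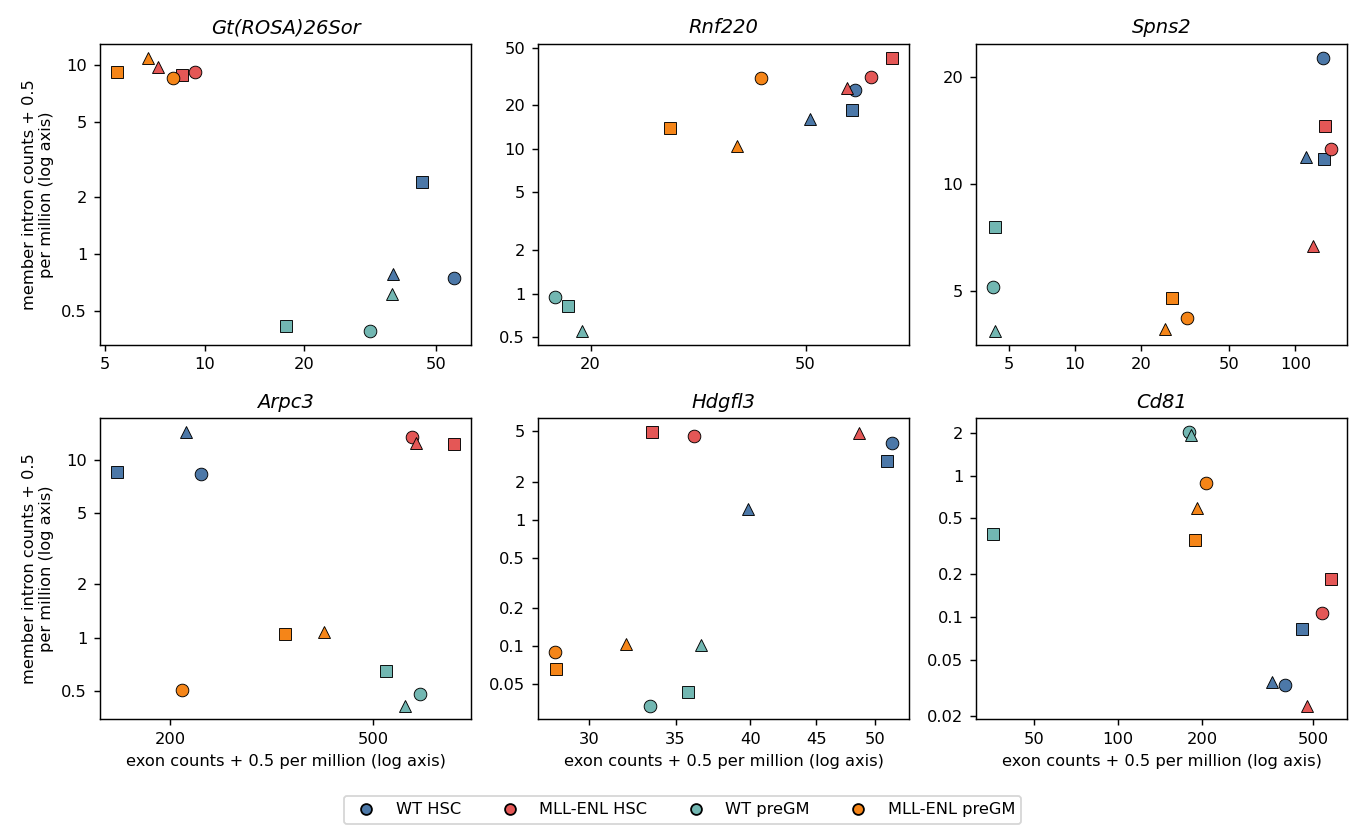
Member intron counts against exon counts, both plus 0.5 and as CPM on log axes, for 6 genes called in the ratio test, 1 point per library, coloured by group. The MLL-ENL libraries of Gt(ROSA)26Sor sit high and to the left of the wild-type libraries, and the preGM libraries of Hdgfl3 and Arpc3 lie far below the HSC libraries.

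Among genes called between cell types, Arpc3 and Hdgfl3 had lower intron levels in preGM. Arpc3, a subunit of the complex that nucleates branched actin, had 126, 155 and 207 intron counts in wild-type HSC and 314, 232 and 261 in MLL-ENL HSC, against 21, 22 and 18 and 25, 40 and 46 in the preGM groups. Every preGM library held fewer intron counts than every HSC library. Its exon counts were 2844 to 3504 in wild-type HSC and 18400 to 27532 in wild-type preGM, and 12838 to 13982 and 10598 to 17231 in MLL-ENL. The exon level rose between the wild-type cell types (2.22) and did not pass between the MLL-ENL ones (-0.40, adjusted p = 0.318). The log2 change of the ratio was -5.87 ± 0.51 in wild type (adjusted p = 0.000129) and -2.87 ± 0.48 in MLL-ENL (adjusted p = 0.0165), where leaving out any 1 MLL-ENL library other than preGM replicate 1 lost the call (adjusted p up to 0.104 over 26 alternatives). Hdgfl3, a growth factor family gene, had 17 to 106 intron counts in the HSC libraries and 1 to 4 in the preGM libraries, with ratio changes of -5.20 (adjusted p = 0.00115) and -5.51 (adjusted p = 0.000856) and exon changes of 0.29 and 0.18 that did not pass.

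In others the exon counts rose. Pigl, an enzyme of glycolipid anchor synthesis, had 109 to 224 raw intron counts in HSC libraries and 77 to 161 in the deeper preGM libraries. Its raw exon counts went from 125 to 350 up to 1318 to 2847. Its ratio changed by -4.47 in wild type (adjusted p = 0.000281) and -3.02 in MLL-ENL (adjusted p = 0.00706). Its intron level was also lower in wild-type preGM (-1.24, adjusted p = 0.0211) and did not pass in MLL-ENL (-0.46). Igsf6, an immunoglobulin family gene of myeloid cells, rose from 14 to 47 exon counts in HSC libraries to 3423 to 14051 in preGM libraries with a ratio change of -6.32 in MLL-ENL (adjusted p = 0.00706), where its introns did not pass (0.30). Loxl3 and Elp6 were also lower in MLL-ENL preGM than in MLL-ENL HSC (-4.01 and -4.14), and Zdhhc21, a palmitoyl transferase gene, was lower between the wild-type cell types (-2.76, adjusted p = 0.0125).

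The genes called higher in preGM were fewer. Cd81, a tetraspanin gene, had 0, 1 and 0 intron counts in wild-type HSC and 2, 3 and 0 in MLL-ENL HSC, against 90, 13 and 85 in wild-type preGM and 44, 13 and 25 in MLL-ENL preGM. Its exon counts were 1239 to 12570 in every group, and wild-type preGM replicate 2 was low in both measures. The log2 change of the ratio was 7.45 ± 0.92 in wild type (adjusted p = 0.00189) and 4.24 ± 0.77 in MLL-ENL (adjusted p = 0.028). The Cd81 call in MLL-ENL was lost in 7 of 26 alternatives (adjusted p up to 0.128), which include leaving out any 1 MLL-ENL library other than preGM replicate 1, or wild-type preGM replicate 1. Erp27, an endoplasmic reticulum protein gene, had 1036 to 1238 exon counts in MLL-ENL HSC and 28 to 33 in MLL-ENL preGM, with 41 to 53 and 6 to 17 intron counts. The Erp27 call in MLL-ENL was lost in 9 of 27 alternatives (adjusted p up to 0.144), which include the same libraries left out 1 at a time. Ccdc112 was called higher between the wild-type cell types, a call lost in 4 of 27 alternatives (adjusted p up to 0.901). Its first intron, in which the later annotation places an exon, held 20, 19 and 14 raw counts in wild-type HSC and 64, 35 and 58 in wild-type preGM. Its other members held 0 to 30 per library in wild-type HSC and 0 to 3 in wild-type preGM. Rab44, a small GTPase gene, was called in MLL-ENL (3.11 ± 0.48, adjusted p = 0.00877) through 1 interval of 10403 bases with 33.1% of exon density. Leaving out intervals above 20% of exon density turned its change to -0.52. Mras, a Ras family gene with fewer than 200 intron counts, was the fourth called higher in MLL-ENL (adjusted p = 0.0325) and was named after its values were seen.

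The lists of genes were taken by role. Of 33 genes for CLK kinases and serine and arginine rich or other splicing factors, U2af1, the small subunit partner of U2af2, was the 1 called, lower in wild-type preGM than in wild-type HSC (-2.03 ± 0.45, adjusted p = 0.0455). The U2af1 call was lost in 15 of 26 alternatives (adjusted p up to 0.202), which include leaving out any 1 library other than MLL-ENL preGM replicate 1. DESeq2 called 9 of the 132 tests of this list over the 4 comparisons and limma 1, beside 5.52% of all tests called by DESeq2. Raw intron counts of U2af1 were 124 to 211 in wild-type HSC and 167 to 193 in wild-type preGM, and raw exon counts 935 to 1245 and 3690 to 5837. The wild-type preGM libraries were deeper, with a mean of 41190000 exon counts against 15970000 in wild-type HSC. Relative to depth its intron counts were thus lower in wild-type preGM, though its intron level was not called in that comparison. Its exons rose less than the raw counts show. The medians of the list in the 4 comparisons were 0.41, 0.32, -0.60 and -0.92, beside 0.32, 0.17, -0.66 and -0.81 over all genes. Without both preGM libraries that stood apart, the list's median in MLL-ENL preGM against wild-type preGM was 0.105, beside 0.075 over all genes. Of 28 genes for hnRNP proteins and RNA helicases, Hnrnph1 was the 1 called, and medians were 0.36, 0.34, -0.48 and -0.76. DESeq2 called 11 of the 112 tests of that list and limma 2. Its median in MLL-ENL preGM against wild-type preGM was 0.102 without both libraries that stood apart. Of 14 nuclear envelope genes 0 were called in any comparison by edgeR. Their 56 tests over the 4 comparisons held 6 with an unadjusted p under 0.05 (10.7%), all lower, beside 14.6% of the 35984 tests of all genes, and DESeq2 called 3 of the 56 and limma 0.

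Ribosomal protein genes had low intron densities beside the typical gene. The median over 62 of them was 0.0979% of exon density in wild-type HSC, 0.136% in MLL-ENL HSC, 0.0804% in wild-type preGM and 0.163% in MLL-ENL preGM, and 0 were called by edgeR in the 4 comparisons. Their median ratio change in MLL-ENL preGM against wild-type preGM was 0.89, with 57 of 62 above 0, beside 0.17 over all genes. Without both libraries that stood apart it was 0.22 with 39 of 62 above 0, beside 0.08. Of the 248 tests of these genes over the 4 comparisons, 30 had an unadjusted p under 0.05 with edgeR (12.1%, beside 14.6% for all genes), 18 of them higher, while DESeq2 called 8 and limma 0. Of 9 genes that host small nucleolar RNAs 0 were called by edgeR. Among their 36 tests 7 had an unadjusted p under 0.05 (19.4%, beside 14.6%), and DESeq2 called 5 and limma 0. The 4 immediate early genes had 0 of 16 tests called by edgeR, 0 with an unadjusted p under 0.05, and 0 called by DESeq2 or limma. Of 33 mitosis and replication genes, Rrm2, a ribonucleotide reductase subunit, was the 1 called, lower in wild-type preGM (-2.93, adjusted p = 0.0462). Its raw intron counts were 28 to 39 in wild-type HSC and 22 to 27 in wild-type preGM. Raw exon counts were 2229 to 4531 and 5728 to 37621, not scaled for the greater depth of the preGM libraries. The Rrm2 call was lost in 15 of 26 alternatives (adjusted p up to 0.223), which include leaving out any 1 library other than MLL-ENL preGM replicate 1 and wild-type preGM replicate 2. DESeq2 called 6 of the 132 tests of that list and limma 0.

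The last comparison at the level of genes set intron levels against exon levels. Intron counts were called higher for 40 of the 8996 genes (0.445%) and lower for 11 (0.122%) in MLL-ENL HSC against wild type, and higher for 83 (0.923%) and lower for 28 (0.311%) in MLL-ENL preGM. They were called higher for 319 (3.55%) and lower for 2058 (22.9%) in wild-type preGM against HSC, and higher for 199 (2.21%) and lower for 1668 (18.5%) in MLL-ENL preGM against HSC. The genotype change differed between cell types for 12 genes upwards in preGM (0.133%) and 13 downwards (0.145%). Exon counts of the same genes were called higher for 196 (2.18%) and lower for 83 (0.923%) between genotypes in HSC, and higher for 353 (3.92%) and lower for 233 (2.59%) in preGM. Between cell types they were higher for 1741 (19.4%) and lower for 1899 (21.1%) in wild type, and higher for 2202 (24.5%) and lower for 1795 (20%) in MLL-ENL, and the genotype change differed for 111 upwards (1.23%) and 141 downwards (1.57%). Over all genes the median log2 change between wild-type cell types was -0.83 for introns and -0.02 for exons. Of 1899 genes whose exons fell in wild-type preGM, introns fell in 1055 (55.6%), with a median log2 change of -1.87 beside -1.46 for exons. Of 1741 genes whose exons rose, introns rose in 248 (14.2%) and fell in 56, with a median of 0.17 beside 1.27. In MLL-ENL the same counts were 952 of 1795 (53.0%) and 158 of 2202 (7.18%). Over all genes, introns were called lower in 22.9% and higher in 3.55% in wild type, and in 18.5% and 2.21% in MLL-ENL. The shares for falling and rising exons thus stand on unlike bases, and the difference between them was not tested. With introns scaled on their own counts, the intron calls between wild-type cell types were 767 higher and 749 lower.

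**Figure D5:**
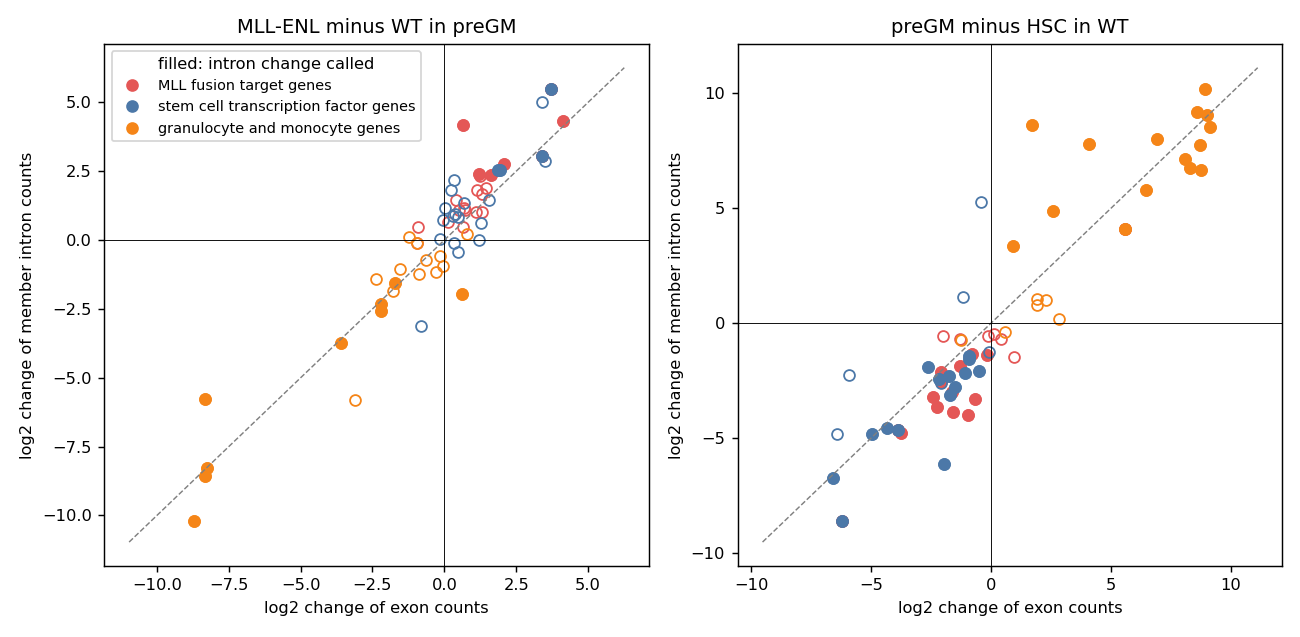
Log2 change of member intron counts (vertical) against log2 change of exon counts (horizontal) for genes of 3 lists, MLL-ENL against wild type in preGM on the left and preGM against HSC in wild type on the right, with filled points where the intron change was called and a dashed line of equal change. MLL fusion targets lie to the upper right in MLL-ENL preGM, as in Meis1 with 3.06 for introns and 3.40 for exons.

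Listed MLL fusion targets carried more intron counts in MLL-ENL preGM. Of 21 with members, 7 rose and 0 fell in that comparison, and 3 rose and 1 fell in MLL-ENL HSC, beside 0.923% and 0.445% of all genes called higher; the list was drawn up with results of these libraries known, so its direction is not independent evidence. Meis1, a homeobox gene of stem and leukaemia cells, had 104, 52 and 41 intron counts in wild-type preGM and 1627, 396 and 440 in MLL-ENL preGM. Its introns rose by 3.06 ± 0.43 (adjusted p = 2.07e-05) and its exons by 3.40 ± 0.39, so the ratio did not pass (-0.15). Mecom, a zinc finger gene of stem cells, had 1, 0 and 0 intron counts in wild-type preGM against 55, 16 and 16 in MLL-ENL preGM, and 80, 185 and 77 against 897, 611 and 336 in HSC. Its introns rose by 1.87 in HSC (adjusted p = 0.0266) and its exons by 1.45. That intron call in HSC was lost in 4 of 18 alternatives (adjusted p up to 0.148). Eya1, Hoxa9, Runx2, Tcf4 and Rnf220 completed the 7, with Eya1 going from 12, 6 and 13 to 605, 159 and 155. Of the 7 intron level calls, that of Hoxa9 was lost in 1 of 18 alternatives (adjusted p up to 0.0593), and the others held in all 18. In the ratio, edgeR called 2 of the list's 84 tests over the 4 comparisons, DESeq2 10 (11.9%) and limma 3. DESeq2 called 5.52% of the tests of all genes. MLL-ENL preGM replicate 1 was the highest of its group for Meis1, Eya1 and Mecom. Its stroma and endothelium markers, 5 genes, reached 118.6 CPM against at most 39.97 elsewhere. Nearly all of that sum was Pecam1, at up to 116.6 CPM in MLL-ENL preGM. Col1a1, Col1a2, Col3a1 and Cdh5 each stood at 1.65 CPM or less in that group.

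Flt3, a receptor kinase of early progenitors and a listed target, had 14, 36 and 68 intron counts in wild-type HSC and 0 in all 3 MLL-ENL HSC libraries. Its intron level in wild-type HSC was at least 52.2-fold higher than in MLL-ENL HSC (adjusted p = 0.000765), and its exon counts fell too, from 232, 333 and 248 to 180, 98 and 99 (-1.72, adjusted p = 0.00575). In preGM its introns went from 2, 9 and 7 to 41, 32 and 24 and did not pass (adjusted p = 0.416).

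Stem cell transcription factors lost intron counts in preGM. Of 21 with members, 15 fell and 0 rose in wild type and 13 fell and 0 rose in MLL-ENL, where 22.9% and 18.5% of all genes were called lower. In exons 18 and 17 of the 21 were called lower, beside 21.1% and 20% of all genes. In the ratio, DESeq2 called 10 of the list's 84 tests over the 4 comparisons (11.9%, beside 5.52% of the tests of all genes) and limma 4. Prdm16, a zinc finger regulator of stem cells, was the list's 1 gene called in the ratio by edgeR. It had 126, 121 and 43 intron counts in wild-type HSC and 1, 3 and 2 in wild-type preGM. Its ratio changed by -4.13 ± 0.83 in wild type (adjusted p = 0.0319) and -4.25 ± 0.81 in MLL-ENL (adjusted p = 0.0325). These calls were lost in 10 and 9 of 27 alternatives (adjusted p up to 0.194 and 0.155), among them separate scaling, leaving out intervals that hold later exons, and leaving out any of 7 single libraries (wild-type HSC replicates 1 and 2, MLL-ENL HSC replicate 2, wild-type preGM replicates 1 and 3, MLL-ENL preGM replicates 2 and 3) in wild type and 7 (all MLL-ENL libraries and wild-type preGM replicate 1) in MLL-ENL. Hlf, a leucine zipper factor of stem cells, kept its ratio within the error (0.23 ± 0.67) as introns fell by 4.80 and exons by 4.97 on the log2 scale.

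Granulocyte and monocyte genes gained intron counts in preGM, with 15 of 21 higher and 0 lower in wild type and 7 higher and 2 lower (Anxa1 and Per3) in MLL-ENL, beside 3.55% and 2.21% of all genes called higher. In MLL-ENL preGM against wild-type preGM, 9 of the 21 fell and 0 rose, beside 0.311% of all genes called lower. S100a8, a calcium-binding protein of neutrophils, had 437, 327 and 262 intron counts in wild-type preGM and 1, 1 and 2 in MLL-ENL preGM, with exon counts of 68371 to 81147 against 220 to 413. Mpo, the peroxidase of neutrophil granules, had 3377, 1464 and 3551 intron counts in wild-type preGM and 1389, 732 and 741 in MLL-ENL preGM. Its introns fell by 1.94 on the log2 scale (adjusted p = 0.00286), while exon counts of 52244 to 266552 and 164677 to 643366 overlapped and did not pass (0.60, adjusted p = 0.388). The ratio change of -2.58 had an adjusted p of 0.812. Elane, a granule protease, went the other way about, with exons lower by a log2 change of -2.39 (adjusted p = 0.000439) and introns by -1.43 (adjusted p = 0.0748). Summed mast cell and basophil markers fell in the same comparison, as given above, and their part in these changes was not tested.

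Single introns were tested against the other introns of their gene for 24818 introns in 5935 genes. Few counts per intron limit this test, since the median member had 141 over 12 libraries, so the number called does not show how many introns differ. There were 2 higher (0.00806%) and 1 lower (0.00403%) in MLL-ENL HSC, and 3 higher (0.0121%) and 0 lower in MLL-ENL preGM, where 110 were lower at an unadjusted p under 0.05. Between wild-type cell types 2 were higher (0.00806%) and 4 lower (0.0161%), and between MLL-ENL cell types 1 was higher (0.00403%) and 3 lower (0.0121%).

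In Tapt1, a transmembrane protein gene, the first intron (8179 bases) held 19, 4 and 2 counts in wild-type HSC and 335, 321 and 320 in MLL-ENL HSC, and 11, 7 and 4 against 163, 71 and 79 in preGM. The groups did not overlap in either cell type, the call was in HSC (2.48, adjusted p = 0.0159), and a later annotation places 2 predicted genes inside the interval. In Stx12, a syntaxin gene, the intron at chr4:132868268-132871587 held 0 in all 3 wild-type HSC libraries, 48, 26 and 30 in MLL-ENL HSC and 18 to 37 in the preGM libraries (adjusted p = 0.0176 for genotype). In Mpo, introns of 328 and 760 bases rose against the other introns of the gene in MLL-ENL preGM, with 22, 18 and 22 counts against 137, 139 and 148 in the shorter (adjusted p = 0.0189) and 34, 15 and 41 against 413, 59 and 66 in the longer (adjusted p = 0.0251). Of these calls, those of Tapt1 and Stx12 were lost in 5 and 8 of 17 alternatives (adjusted p up to 0.0998), on leaving out any 1 HSC library other than wild-type replicate 1 for Tapt1, and any 1 HSC library or wild-type preGM replicate 1 for Stx12. Those of the Mpo introns were lost in 6 and 8 of 17, on leaving out any 1 preGM library, other than MLL-ENL replicate 1 for the shorter.

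A few intervals held very many counts. The 10 highest members held 8.55% of all member counts and the highest 284 held 21.8%, while the median member had 141. The highest was an intron of Jarid2, a Polycomb partner gene, at chr13:44848422-44874282, with 280474 counts, and introns of Camk1d, Filip1l, Cntnap5b and Il31ra were also among the highest. Their counts per kb exceeded those of the gene's exons, with 947.9% of exon density in Jarid2, and Cntnap5b had 0 exon counts. In Jarid2 the interval stood at 373.3 to 527.3 CPM in the 6 HSC libraries, 245.4 to 763.9 in 5 preGM libraries and 3030 in wild-type preGM replicate 2. The same library was the highest for all 5. Kcnq1 differed from these: its interval, in which the later annotation places the antisense RNA Kcnq1ot1, stood at 83.96 to 152.9 CPM in HSC libraries and 17.43 to 58.65 in preGM libraries, while Kcnq1 itself had 0 exon counts. Without the 284 highest members, the cell type difference in intron share was -2.24 and the genotype difference 0.864.

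At the other end of the scale, many members were thin. Counts were present in all 12 libraries for 11648 of the 28319 members, and 1407 had 0 in all 3 wild-type HSC libraries, 313 in MLL-ENL HSC, 477 in wild-type preGM and 213 in MLL-ENL preGM. Wild-type HSC libraries were also the shallowest. The median density of a member was 2.35% of the exon density of its gene, with quartiles of 0.829% and 6.35%, and 450 members exceeded 100%.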

How the data were processed

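RNA was measured in 12 libraries. The deposited tables hold, per the file headers, a tag count and an RPKM for each exon, intron and spliced transcript. Counts are the authors' whole numbers of reads per feature. RPKM values are the authors' counts scaled by feature length and library size and were used only to check library sizes. TopHat2 2.0.8, Bowtie2 2.1.0, HTSeq and edgeR are named without role in the submitters' processing notes. No source used here names a build, and coordinates matched GRCm38 transcripts.

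Introns were taken once by position, and exon counts of a gene were summed over its distinct exons. Overlapping features each count the same reads, and it is not stated that strand was used. The ratio test was edgeR 4.0.16 quasi-likelihood (R 4.3.3) on 24 columns (introns and exons of each library), with a library block, an intron by group term and 1 effective library size per library from TMM on exon counts; all 4 groups entered 1 fit of 8996 genes. Levels were tested the same way, and single introns against their gene with edgeR's diffSpliceDGE (24818 introns). Adjusted p-values are Benjamini-Hochberg, called at 0.05, from edgeR unless another tool is named, and errors on log2 changes are standard errors. Exact permutation tests were two-sided over 20 or 400 splits. Scripts were tested on simulated counts. Alternatives were DESeq2 1.42.0, limma 3.58.1, other scalings, filters and minimums, leaving out libraries, and a replicate block. Same-numbered libraries did not deviate together (18 correlations, -0.039 to 0.043).

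The members and gene lists were chosen with earlier results of these data known. Genes were named by rule: per comparison the 5 smallest p-values in each direction among genes called with at least 200 intron counts, the genes of the lists, the 10 members with the most counts and the 10 with the highest density, and the 5 introns with the smallest p-values against their gene. Sequences were copied from GENCODE M21 transcripts. Introns of 1 gene that the naming rule covers are not reported here, though they stay in the counts.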

Additional observations from a re-analysis of the deposited data

Results flagged for a closer look

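The change in intron level between MLL-ENL and wild type differed between preGM and HSC for 25 genes, 12 higher and 13 lower in preGM, by edgeR's test of the difference itself, and 7 of them are named here. The log2 change in preGM minus that in HSC was 10.908 for Flt3 (adjusted p = 0.000563), 3.637 for Rnf220 (adjusted p = 0.000563), 2.944 for Eya1 (adjusted p = 0.0272) and 2.442 for Meis1 (adjusted p = 0.0492), all 4 listed MLL fusion targets. It was -9.122 for S100a8 (adjusted p = 0.00896), -8.486 for Hnrnph1 (adjusted p = 0.0218) and -3.482 for Anxa1 (adjusted p = 0.0218), an annexin gene. The calls of Flt3 and Rnf220 held in all 18 alternatives run. The others were lost in 10 for Meis1 (adjusted p up to 0.169), 10 for Anxa1 (0.164), 8 for Eya1 (0.164), 7 for Hnrnph1 (0.0783) and 3 for S100a8 (0.353), in each case without both preGM libraries that stood apart and on leaving out single libraries. Leaving out any 1 wild-type preGM or MLL-ENL HSC library lost those of Meis1 and Eya1. So did leaving out any wild-type HSC library for Meis1 and its replicate 1 for Eya1. For Anxa1 the call was lost on leaving out any 1 library other than MLL-ENL HSC replicate 1, MLL-ENL preGM replicate 1 and wild-type HSC replicate 3. For Hnrnph1 it was lost without replicate 2 or 3 of either MLL-ENL group or replicate 1 or 3 of wild-type preGM, and for S100a8 without MLL-ENL HSC replicate 1 or 2. The fitted sizes for Flt3 and Hnrnph1 depend on a prior count, since 1 group of each had 0 intron counts in all 3 libraries. Exon levels differed in the same way for Flt3 (3.18, adjusted p = 0.000493), Eya1 (3.07, adjusted p = 0.0111), Meis1 (2.80, adjusted p = 0.00596) and S100a8 (-7.94, adjusted p = 1.81e-06), and the test was not passed for Rnf220 (0.64, adjusted p = 0.271), Hnrnph1 (0.73, adjusted p = 0.266) and Anxa1 (-1.93, adjusted p = 0.144). The ratio of introns to exons did not differ past the threshold for any of the 7.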

How the results depend on the processing

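The cell type difference in intron share kept its direction under each alternative run. Leaving out 1 library gave 1.065 to 1.606 for genotype in HSC, -0.02881 to 0.8716 in preGM, -2.348 to -1.975 and -3.505 to -2.604 for cell type in wild type and MLL-ENL, 0.6418 to 1.092 for genotype within cell type and -2.834 to -2.384 for cell type within genotype. It turned the preGM genotype difference to -0.02881 (without MLL-ENL preGM replicate 1). The genotype difference within cell type passed the exact permutation test before adjustment, and did not as the median over genes (0.3811) or without intervals that hold later exons (0.534). It also did not when 1 of 6 libraries was left out, namely any wild-type HSC library, MLL-ENL preGM replicate 1, and replicate 1 or 3 of wild-type preGM (exact permutation p of 0.015 to 0.075 over the 12 libraries left out). The differences in the first over last ratio ranged from 0.04963 to 0.05915, -0.09215 to -0.003842, -0.0886 to -0.0002919, -0.1603 to -0.1302, -0.01834 to 0.02581 and -0.1182 to -0.07409 in that order, with the turn to -0.01834 without wild-type preGM replicate 3.

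The counts of ratio calls moved most. In HSC 5 became 139 with DESeq2, 29 with limma, 9 with separate TMM, 3 with introns of at least 1000 bases and with at least 200 counts, 2 with the replicate block and 0 with only the groups compared. In preGM 4 became 15 with DESeq2 and 1 without both preGM libraries that stood apart. Between wild-type cell types 126 became 889 with DESeq2, 236 with limma, 335 with at least 200 counts, 82 with at least 1000 bases, 79 with the replicate block, 59 with separate TMM, 8 with only the groups compared, 232 without both libraries and 25 without intervals holding later exons. Between MLL-ENL cell types 64 became 945 with DESeq2, 347 with at least 200 counts, 155 with filterByExpr, 125 with only the groups compared, 38 with separate TMM, 23 with the replicate block, 419 without both libraries and 22 without intervals holding later exons. The difference between genotype comparisons went from 0 to 8 with DESeq2, 3 with separate TMM and 1 with at least 200 counts.

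For intron levels, 51 in HSC became 251 with DESeq2, 102 with TMM of introns and 88 without both libraries; 111 in preGM became 190 with DESeq2 and 48 without both; 2377 between wild-type cell types became 1516 with TMM of introns; and 25 for the difference became 60 with DESeq2, 59 with TMM of introns and 8 without both. For single introns, 3 in HSC became 6 with TMM of introns and with at least 200 counts, 3 in preGM became 0 without both, 6 between wild-type cell types became 23 with TMM of introns and 1 without both, and 4 between MLL-ENL cell types became 14 and 0. Leaving out 1 library gave 3 to 6, 1 to 5, 5 to 210, 1 to 206 and 0 to 0 ratio calls, 18 to 119, 57 to 229, 1150 to 2720, 1029 to 2638 and 11 to 29 level calls, and 0 to 5, 0 to 3, 1 to 8 and 0 to 8 single intron calls. The Rab44 ratio turned to -0.52 without dense intervals, and an intron of Ms4a3 (2896 bases) to 0.006 between wild-type cell types without wild-type HSC replicate 2 (lowest value on leaving out 1 library, -3.638). Where construction does not show it, the cause was not tested.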
